A study of Mus musculus with 48 samples.

Results

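Long noncoding RNAs (lncRNAs) were examined in the mouse cerebellum after conditional deletion of Chd4, the chromatin remodelling ATPase of the NuRD complex, and after motor training on a rotating rod. The members are the genes that the authors' 2 deposited comparison tables annotate as lincRNA, a long RNA gene lying between other genes, or as antisense, a long RNA gene opposite another gene. Each gene was counted once, and Malat1 and Snhg11 were left out. There were 308 such genes among the 6094 genes listed in either table. The table of the deletion held 272 of them among 5508 genes (149 lincRNA and 123 antisense), the table of the training held 53 among 908 (30 lincRNA and 23 antisense), and 17 stood in both.

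The groups were cerebella of Chd4 conditional knockout (cKO) mice and of wild-type (WT) mice, and cerebella of rotarod-trained WT mice and of WT mice kept resting in the home cage, all at postnatal days 27 to 28 and with 4 libraries each. Ribosome-bound RNA came from cKO and WT cerebella at postnatal day 12, 6 days after electroporation, with 3 libraries each. The promoter that drove the deletion is not given here. The RNA was reverse-transcribed from an oligo-dT primer, so mainly transcripts with a poly(A) tail were measured, and nothing states whether a replicate was 1 animal or a pool. P-values therefore measure the spread between these libraries. In whole tissue, fewer cells of a type and less RNA per cell cannot be told apart. The series holds 48 samples in all, and its chromatin libraries were not analysed here.

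Long noncoding RNAs are transcribed and often spliced like messenger RNAs but are not known to be translated into a protein. Some build nuclear bodies, some act on the chromatin of the locus they are made from, some are precursors of microRNAs, and for many no role is known. They tend to be restricted to particular cell types and are often less abundant than messenger RNAs, and antisense transcripts share a locus with a protein-coding gene.

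The libraries held 13.7 to 15.6 M reads in the deletion comparison and 13.7 to 16.7 M in the training comparison, recovered from the deposited values. Chd4 itself had 3668, 3527, 3331 and 3697 reads in the cKO libraries, against 4870, 4830, 5304 and 4674 reads in the WT libraries. Its log2 CPM (its reads scaled to library size, on a log2 scale) was lower by 0.44 ± 0.06 in cKO (SE), with an adjusted p of 0.00199 by limma, the linear model used throughout with p-values adjusted for all features tested. The 4 cKO values lay below the 4 WT values, but transcript remained. Markers of Purkinje cells, glia, vessels and the remaining non-granule types were mostly lower in cKO: 37 of the 38 listed of 71 markers were listed as lower and 1 as higher, with a median difference of -0.30. None of these 38 was at 0 reads, and their summed level was 17462 to 18054 CPM in the cKO libraries, against 19596 to 21754 CPM in the WT libraries. Of all features tested 9.29% were listed as lower and 11% as higher. The part of these markers in the lncRNA differences was not tested.

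In the cKO cerebellum lncRNAs were listed mostly as higher. The authors' deposited table lists 196 of the 272 as higher and 76 as lower in cKO. Over all features tested the same call was made for 11% as higher and 9.29% as lower (20.3% in either direction), and 2990 of the 5508 listed genes, or 54.3%, were higher. Among the listed lncRNAs 72.1% were higher: 118 of 149 lincRNAs (79.2%) and 78 of 123 antisense genes (63.4%). The table holds called genes alone, so it gives no share of all lncRNAs that changed.

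Pooled over abundance, the differences were larger than those of all listed genes, while the share of at least 2-fold was close to that of protein-coding genes within bands of abundance. The median difference of the 272 was 0.72 on the log2 CPM scale, against 0.21 over all listed genes, and it was 0.74 with genes at 0 reads set to the smallest fold their reads allow. It was 0.37 on the log2(CPM + 1) scale and 0.12 on the log2(CPM + 5) scale. By the fold changes of the authors' deposited table, 124 were at least 2-fold higher and 21 at least 2-fold lower, together 53.3% of the members against 18.8% of all listed genes. In bands of abundance this share was 95.2% of lncRNAs and 95.3% of listed protein-coding genes below 0 log2 CPM, 35.8% and 35.4% between 0 and 3, and 6.25% and 5.21% at 3 or above. Over all features tested such a call was made for 3.2% as higher and 0.627% as lower (3.83% in either direction). By limma 134 rose and 42 fell, where 8.17% and 5.04% of all features did (13.2% in either direction). The 4 cKO libraries lay wholly above the 4 WT libraries for 143 members and wholly below for 45, and among all listed genes the groups did not overlap for 78% (44.8% above and 33.2% below).

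Direction went with abundance, as it did for messenger RNAs. Below 0 log2 CPM, 80.8% of the 104 listed lncRNAs and 82.3% of the 277 listed protein-coding genes were higher in cKO. Between 0 and 3 log2 CPM the shares were 71.7% of 120 lncRNAs and 62.6% of 807 protein-coding genes, and at 3 or above they were 54.2% of 48 and 48.5% of 3934. From the lowest to the highest of these bands the median difference was 0.96, 0.65 and 0.24 for lncRNAs, and 1.12, 0.58 and -0.16 for protein-coding genes. Whether the lncRNAs differ from protein-coding genes of like abundance was not tested.

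**Figure D1:**
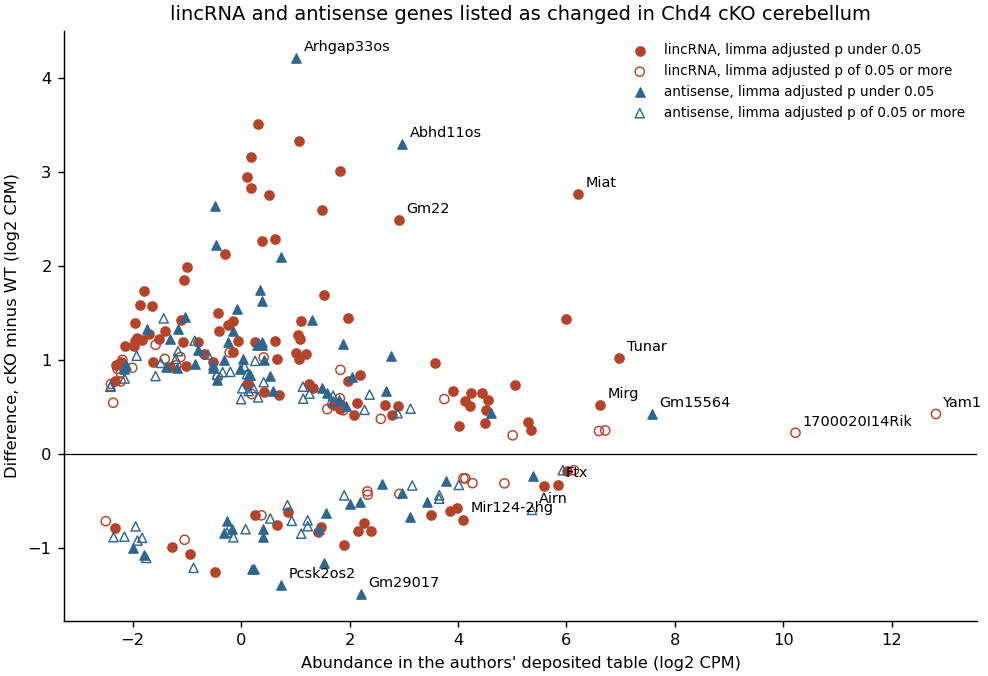
Each point is 1 of the 272 lncRNAs in the deletion comparison, with the authors' mean abundance (log2 CPM) on the x axis and the cKO minus WT difference (log2 CPM) on the y axis. Circles are lincRNAs and triangles antisense genes, filled where limma's adjusted p is under 0.05. Differences above 2 lie mostly at low abundance, with Miat at 6.21 log2 CPM standing apart at a difference of 2.77.

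Arhgap33os, an antisense gene named for its neighbour Arhgap33, rose most among members of at least median abundance. It had 47, 43, 40 and 74 reads in the cKO libraries, against 1, 3, 0 and 0 reads in the WT libraries. It was thus near absent from every WT library and present in every cKO library. The difference was 4.22 ± 0.31 log2 CPM (SE, limma adjusted p = 8.43e-05). Abhd11os, antisense to the gene of a mitochondrial hydrolase, had 180, 222, 201 and 219 reads in cKO, against 23, 17, 19 and 19 reads in WT. Its groups lay far apart and varied little, with a difference of 3.30 ± 0.08 (limma adjusted p = 4.04e-07).

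Miat, also called Gomafu, is a neuronal RNA that stays in the nucleus and is known to bind splicing factors. It had 1910, 1573, 1938 and 2090 reads in the cKO libraries, against 332, 224, 284 and 286 reads in the WT libraries. Every cKO library was far above every WT library, also cKO library 2, the lowest of its group. The difference was 2.77 ± 0.12 log2 CPM (SE, limma adjusted p = 6.17e-06). Tunar, a lncRNA known from neural differentiation of mouse embryonic stem cells, had 2347, 2572, 2347 and 2520 reads in cKO, against 1146, 1138, 1463 and 1203 reads in WT. Its groups did not overlap and its difference was 1.02 ± 0.07 (limma adjusted p = 5.23e-05).

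Gm14339, Gm14342 and Gm14344 rose together. Gm14339 had 60, 57, 43 and 54 reads in cKO, against 2, 3, 6 and 4 reads in WT (difference 3.33 ± 0.20, limma adjusted p = 2.45e-05). Gm14344 had 105, 80, 63 and 115 reads in cKO, against 10, 9, 11 and 8 reads in WT (3.01 ± 0.17, limma adjusted p = 1.9e-05), and Gm14342 had 137 reads in cKO and 14 in WT in all (2.76 ± 0.18). Gm14342 and Gm14344 lie within 50 kb of each other in RefSeq's annotation. In all, 5 pairs of entries listed as lncRNAs lay at that distance. Both entries of each pair were listed as higher, as were 72.1% of all listed lncRNAs. Of these pairs, RefSeq counts 6230415J03Rik with Gm4790 as a single gene. The pair 5830416P10Rik and 4833407H14Rik was matched to separate RefSeq genes, though RefSeq gives the latter symbol as a synonym of the former gene.

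**Figure D2:**
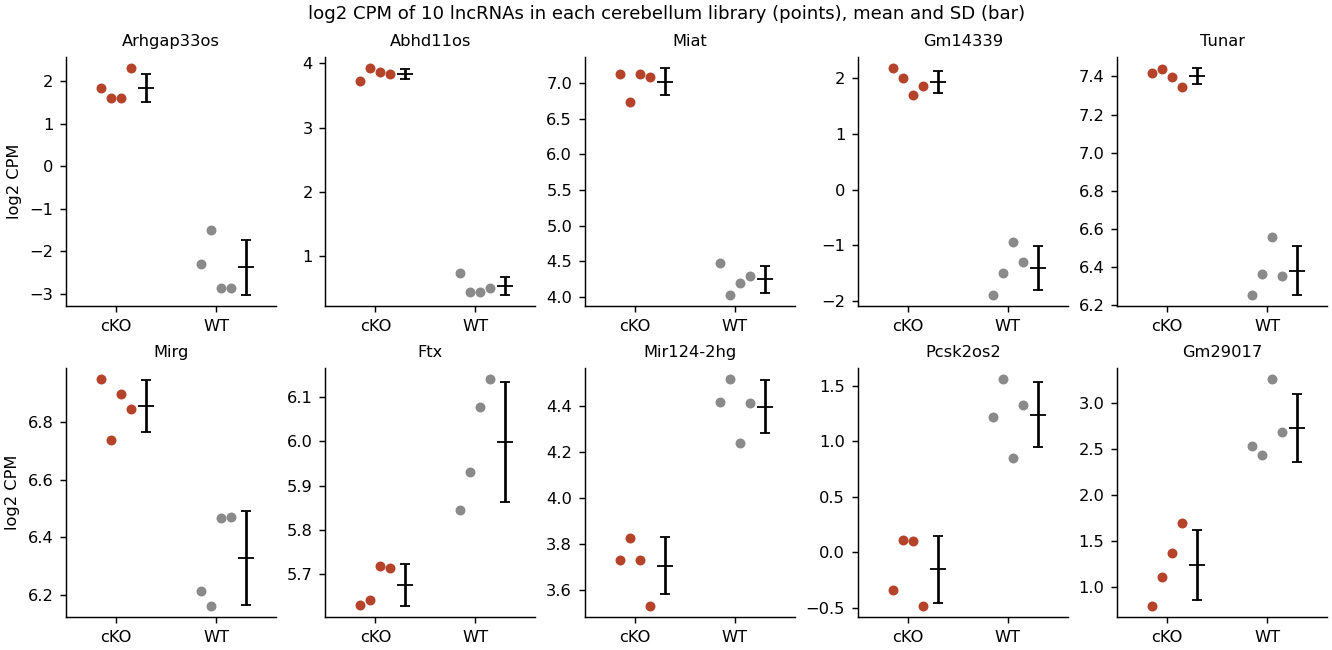
Points are the log2 CPM of 10 lncRNAs in each library, with 4 cKO libraries left and 4 WT libraries right in each panel, and the bar is the mean with its SD. The axes differ between panels and do not start at 0. Arhgap33os, Abhd11os, Miat, Gm14339, Tunar and Mirg are higher in every cKO library than in any WT library, and Ftx, Mir124-2hg, Pcsk2os2 and Gm29017 are lower.

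The start regions of Arhgap33os, Abhd11os, Miat, Gm14342 and Tunar, which rose, and of Pcsk2os2 and Ftx, which fell, are shown because these genes carry the differences described here. Each is the RefSeq window of 250 bases before to 50 after the first annotated start (build GRCm38.p6), 5′ to 3′ on the gene's strand. Capitals mark the motifs searched on both strands: the TATA box TATAAA, the GC box GGGCGG, the AP-1 site TGANTCA, the E-box CAGCTG and the CRE TGACGTCA.
Arhgap33os, chr7:30514872-30515171 on the plus strand: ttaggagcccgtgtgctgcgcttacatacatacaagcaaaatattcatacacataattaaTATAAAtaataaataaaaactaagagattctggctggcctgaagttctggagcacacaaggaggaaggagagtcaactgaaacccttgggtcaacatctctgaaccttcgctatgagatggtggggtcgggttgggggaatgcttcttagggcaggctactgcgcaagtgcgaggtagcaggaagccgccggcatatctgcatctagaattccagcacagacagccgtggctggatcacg
Abhd11os, chr5:135013108-135013407 on the minus strand: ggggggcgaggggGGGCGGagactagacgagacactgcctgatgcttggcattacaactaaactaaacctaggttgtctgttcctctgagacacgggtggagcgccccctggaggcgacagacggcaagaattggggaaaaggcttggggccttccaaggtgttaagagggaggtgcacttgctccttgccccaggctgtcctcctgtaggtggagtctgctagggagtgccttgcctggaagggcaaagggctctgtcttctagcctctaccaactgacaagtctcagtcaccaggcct
Miat, chr5:112228899-112229198 on the minus strand: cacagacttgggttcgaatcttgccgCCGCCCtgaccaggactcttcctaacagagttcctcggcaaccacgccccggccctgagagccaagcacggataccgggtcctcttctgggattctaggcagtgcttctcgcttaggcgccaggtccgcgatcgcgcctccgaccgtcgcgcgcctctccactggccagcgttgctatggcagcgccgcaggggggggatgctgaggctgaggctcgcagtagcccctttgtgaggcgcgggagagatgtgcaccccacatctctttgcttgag
Gm14342, chr2:180845246-180845545 on the minus strand: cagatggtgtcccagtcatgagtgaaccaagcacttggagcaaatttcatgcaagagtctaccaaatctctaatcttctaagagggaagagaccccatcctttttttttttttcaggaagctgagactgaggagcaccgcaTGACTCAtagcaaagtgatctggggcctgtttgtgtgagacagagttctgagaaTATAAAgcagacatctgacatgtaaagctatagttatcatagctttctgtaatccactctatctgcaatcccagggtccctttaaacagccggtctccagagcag
Tunar, chr12:105336344-105336643 on the plus strand: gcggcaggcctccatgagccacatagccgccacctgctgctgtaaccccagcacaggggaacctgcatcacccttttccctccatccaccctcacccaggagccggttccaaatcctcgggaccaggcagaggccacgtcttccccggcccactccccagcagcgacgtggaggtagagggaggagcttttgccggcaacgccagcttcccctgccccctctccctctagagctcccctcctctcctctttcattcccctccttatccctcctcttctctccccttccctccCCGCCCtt
Pcsk2os2, chr2:143789137-143789436 on the minus strand: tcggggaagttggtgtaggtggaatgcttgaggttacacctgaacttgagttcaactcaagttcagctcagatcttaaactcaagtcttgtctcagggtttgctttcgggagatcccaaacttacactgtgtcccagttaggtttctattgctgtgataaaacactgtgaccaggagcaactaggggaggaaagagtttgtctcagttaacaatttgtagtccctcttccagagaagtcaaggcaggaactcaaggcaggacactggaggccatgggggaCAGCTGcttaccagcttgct
Ftx, chrX:103623705-103624004 on the minus strand: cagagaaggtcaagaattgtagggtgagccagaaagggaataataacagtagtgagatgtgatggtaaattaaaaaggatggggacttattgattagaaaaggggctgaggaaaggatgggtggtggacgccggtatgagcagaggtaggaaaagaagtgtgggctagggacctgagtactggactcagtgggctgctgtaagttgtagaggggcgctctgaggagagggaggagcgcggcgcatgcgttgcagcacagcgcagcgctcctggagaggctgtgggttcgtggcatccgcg

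The Miat window is rich in CpG, the dinucleotide of CpG islands: CpG stood at 0.81 of the number that its C and G content gives, against 0.14 in the Gm14342 window. Gm14342 carries an AP-1 site, the element bound by Fos and Jun proteins, 109 bases before its start, and a TATA box at 55 bases. Arhgap33os has a TATA box at 190 bases before the start, and Ftx has no match to these letters.

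A promoter window was matched for 136 of the listed lncRNAs, 100 higher and 36 lower in cKO. Those listed as higher were poor in CpG, with a median observed over expected ratio of 0.32, against 0.71 for those listed as lower. The ratio was 0.25 over 9533 RefSeq lncRNA genes, 0.39 over all 27025 genes with a window and 0.72 over 3876 listed protein-coding genes. The AP-1 letters occurred in 18 of the 100 windows of higher lncRNAs and in 2 of the 36 of lower ones (5.56%). They occurred in 7.93% of all windows, in 9.49% of lncRNA windows and in 5.08% of those of listed protein-coding genes. Gm14342, 5830416P10Rik, E530001K10Rik and Dnmt3aos were 4 of the 18 higher ones, and the lower ones were Gm15759 and 5430400D12Rik. The window of 1 RefSeq gene, Gm33989, stands for 2 of the 100, 6230415J03Rik and Gm4790. The GC box was found in 25% of higher and 55.6% of lower lncRNAs. It was found in 35.9% of all windows, in 16.8% of lncRNA windows and in 64.2% of those of listed protein-coding genes. The E-box was found in 20% and 22.2%, against 16.1% of all, the CRE in 4% and 2.78%, against 1.88%, and the TATA box in 8% and 5.56%, against 14.2%. These shares are a description, and a match is not a site shown to be bound.

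Further lncRNAs of at least median abundance rose. Gm22 had 199, 153, 167 and 207 reads in cKO, against 25, 26, 36 and 40 reads in WT (2.49 ± 0.16, limma adjusted p = 3.77e-05). Gm16702 had 80, 58, 63 and 72 reads in cKO, against 17, 8, 8 and 8 reads in WT (2.60 ± 0.22, limma adjusted p = 0.000167). The other 4 of the 12 largest were Gm26797, Gm11186, A330102I10Rik and Gm28050, with differences of 2.29, 2.10, 1.70 and 1.42. No role is given here for these genes, whose symbols are placeholders. Their groups did not overlap, and each passed limma.

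5830416P10Rik, named Mirt1 by RefSeq and picked here after its values were seen, had 1140, 1207, 1389 and 1692 reads in cKO, against 431, 427, 653 and 542 reads in WT. All cKO libraries lay above all WT libraries, with a difference of 1.44 ± 0.14 log2 CPM (SE, limma adjusted p = 0.000384). 4833407H14Rik, a symbol that RefSeq gives as a synonym of Mirt1, was a separate entry here and was matched to a separate RefSeq gene. It summed to 40 reads over the cKO libraries, against 4 reads over the WT libraries, and rose (limma adjusted p = 2.84e-05).

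Yam1 and 1700020I14Rik, the lncRNAs with the most reads (not set per length) and picked after their values were seen, did not pass limma. Yam1 had 135627, 140146, 98796 and 101333 reads in cKO, against 91050, 92638, 72142 and 103763 reads in WT, with overlapping groups (0.43 ± 0.18, limma adjusted p = 0.211). 1700020I14Rik had 16373, 18152, 19717 and 20858 reads in cKO, against 15910, 15459, 17752 and 16166 reads in WT, and its log2 CPM did not overlap (0.23 ± 0.07, limma adjusted p = 0.0611). Without both, the summed level of the other listed lncRNAs was 2218 to 2442 CPM in the cKO libraries, against 1751 to 1943 CPM in the WT libraries. These genes were listed for a difference between the same libraries, most as higher. The sum therefore does not measure the level of all lncRNAs.

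The members whose log2 CPM followed Miat most closely over the 8 libraries were Abhd11os and Rnf224 (Pearson r = 0.993 each), then Gm10687 and Gm14342 (0.991 each) and Gm13589 (0.988). These 8 points share the split between cKO and WT, which sets most of such a correlation, so it is a description.

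Some lncRNAs had reads in cKO and hardly any in WT. Over the 4 libraries of a group, 14 listed lncRNAs had 0 reads in WT and 4 had 0 reads in cKO, and 33 had at most 3 reads in WT and 10 at most 3 in cKO. All of these were among the 104 lncRNAs below 0 log2 CPM. Of the 277 protein-coding genes listed there, 37 had 0 reads in WT and 6 in cKO, and 81 and 15 had at most 3. Gm13093 had 6, 4, 3 and 6 reads in the cKO libraries and none in WT. Taking 3 reads over the 4 WT libraries as the floor, it was at least 6.47-fold higher in cKO (limma adjusted p = 0.00015). Gm5118, with 16 reads against none, was at least 5.45-fold higher, and Rnf224, with 13 against none, at least 4.43-fold. Gm29398, with 10 reads against none, was at least 3.41-fold higher, and these 3 also passed limma. Gm13026 and Gm29431, each with 9 cKO reads against none, were at least 3.07-fold higher but did not pass limma (adjusted p = 0.215 and 0.0598). In each of these 2, cKO library 2 was at 0 reads. Without cKO library 2 the adjusted p of Gm29431 by limma was 2.53e-05, from 3 reads in each remaining cKO library. In each of these named genes the 4 WT values were tied at 0 reads. The WT libraries thus added no spread to their limma p-values, which rest on few cKO reads. The fold floors cover counting error alone. Rnf224 carries a lincRNA label in the table, as do a few others that RefSeq annotates as protein coding (11 of the 174 members matched to RefSeq).

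By limma fewer lncRNAs fell than rose. Gm29017, an antisense gene, had 22, 30, 34 and 48 reads in cKO, against 85, 73, 147 and 93 reads in WT. Its groups did not overlap and its difference was -1.49 ± 0.23 log2 CPM (SE, limma adjusted p = 0.00379). Pcsk2os2, antisense to the prohormone convertase gene Pcsk2, had 9, 14, 13 and 9 reads in cKO, against 33, 39, 26 and 35 reads in WT. Every cKO library was below every WT library, with a difference of -1.39 ± 0.19 (limma adjusted p = 0.00172). Gm20700 had 35, 19, 22 and 20 reads in cKO, against 60, 48, 56 and 59 reads in WT (-1.15 ± 0.19, limma adjusted p = 0.0057).

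Of the other 9 of the 12 with the lowest fold change, 7 passed limma. 6430590A07Rik, A330008L17Rik, Phf2os1, Gm26944 and Gm26614 fell by 0.96, 0.82, 0.80, 0.78 and 0.75. 5430400D12Rik (-0.82, limma adjusted p = 0.0439) and D830044I16Rik (-0.81, 0.0267) also fell. 4932413F04Rik stood at -0.84 ± 0.28 (limma adjusted p = 0.104) and Gm15735 at -0.76 ± 0.21 (0.0528), both with overlapping groups. The call of 5430400D12Rik was lost without any library but WT library 1 (adjusted p 0.066 to 0.116), and that of D830044I16Rik without cKO library 1 or 2 or WT library 4 (0.0606 to 0.0735). Gm15735 passed without cKO library 4, its highest (adjusted p = 0.00143).

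Of a list of 12 lncRNAs of nuclear bodies and X-chromosome architecture, 3 were among the members (20.3% of all features tested were listed). Miat, given above, was the 1 of these that rose. Ftx, which lies in the X-inactivation centre and is known as a positive regulator of Xist, had 678, 737, 731 and 811 reads in cKO, against 863, 844, 1048 and 1037 reads in WT. The groups did not overlap but came close, and the difference was -0.32 ± 0.07 log2 CPM (SE, limma adjusted p = 0.0225). It did not pass without cKO library 1, 2 or 4 or WT library 3 or 4 (adjusted p 0.0503 to 0.064). Neat1, the RNA that holds paraspeckles together, is listed as lower by the authors' deposited table but did not pass limma. It had 840, 804, 919 and 1307 reads in cKO, against 957, 936, 1203 and 1314 reads in WT, with overlapping groups (-0.17 ± 0.15, limma adjusted p = 1).

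Of 13 imprinted lncRNAs, which are expressed from 1 parental copy, 4 were among the members, 3 listed as higher and 1 as lower. Of all features tested 20.3% were listed. Mirg, a maternally expressed microRNA-containing gene of the Dlk1-Dio3 cluster, had 1693, 1578, 1656 and 1777 reads in cKO, against 1116, 992, 1373 and 1305 reads in WT. It was higher in every cKO library than in any WT library, by 0.53 ± 0.09 log2 CPM (SE, limma adjusted p = 0.00577). Meg3, from the same cluster, had 1564, 1451, 1642 and 1947 reads in cKO, against 1203, 1220, 1696 and 1572 reads in WT. Its groups overlapped, and it did not pass limma (0.25 ± 0.12, adjusted p = 0.343).

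B830012L14Rik had 261, 203, 250 and 208 reads in cKO, against 132, 122, 178 and 202 reads in WT (0.59 ± 0.18, limma adjusted p = 0.0699). It passed without WT library 4, its highest WT value (0.0348). Airn, whose transcription silences Igf2r on the paternal chromosome, had 444, 355, 540 and 518 reads in cKO, against 529, 605, 885 and 881 reads in WT. The groups overlapped by 1 pair of libraries (-0.59 ± 0.20, limma adjusted p = 0.108), and it passed without WT library 1 (0.0415). Igf2r was not listed.

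Protein-coding imprinted genes, set beside them, were listed as higher for 15 and as lower for 7 of 50. Of all features tested 11% and 9.29% were so listed, and 52.6% of the 5018 listed protein-coding genes were higher. By limma 12 of these imprinted genes rose and 4 fell. Magel2, Mkrn3 and Ndn of the Prader-Willi region rose by 1.85 ± 0.17, 0.83 ± 0.11 and 0.59 ± 0.06 log2 CPM (SE), while Grb10, a growth-factor signalling adaptor, fell by 0.34 ± 0.06.

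Some lncRNAs are precursors of microRNAs, whose hairpins are cut out of them. Hairpins of RefSeq lie within 6 of the listed lncRNAs of the deletion comparison. Counted on both strands, Mirg spans 10 of them, Ftx 3, E530001K10Rik 3, and Meg3, AI854517 and 2900076A07Rik 1 each. Mir374c lies opposite to Ftx, and Mir129b opposite to the other hairpins within E530001K10Rik. The mature sequences below belong to hosts described here, from RefSeq (GRCm38.p6), with the seed (bases 2 to 8), which pairs with targets, in capitals. Mature microRNAs were not measured in these libraries.
miR-9-5p (in AI854517): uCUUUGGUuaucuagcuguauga
miR-129-5p (in E530001K10Rik): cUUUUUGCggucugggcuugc
miR-453 (in Mirg): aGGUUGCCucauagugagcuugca
miR-496a-5p (in Mirg): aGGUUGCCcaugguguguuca
miR-410-3p (in Mirg): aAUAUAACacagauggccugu
miR-541-5p (in Mirg): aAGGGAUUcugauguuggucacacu
miR-374b-5p (in Ftx): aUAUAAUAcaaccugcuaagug
miR-1193-5p (Mir1193, no member): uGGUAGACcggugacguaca

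miR-453 and miR-496a-5p of Mirg share the seed GGUUGCC, and the other seeds shown differ from each other. E530001K10Rik, named Mir670hg by RefSeq and picked after its values were seen, had 258, 313, 304 and 334 reads in cKO, against 195, 172, 257 and 213 reads in WT. Its groups did not overlap, and it rose by 0.57 ± 0.10 log2 CPM (SE, limma adjusted p = 0.00629). 2900076A07Rik, which holds Mir1839 and was picked likewise, had 33, 52, 55 and 66 reads in cKO, against 88, 78, 96 and 84 reads in WT. All cKO values lay below all WT values, and it fell by 0.73 ± 0.16 (limma adjusted p = 0.0179).

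Of a list of 22 microRNA host genes, matched by the deposited symbols alone, 1 was among the members. Of all features tested 20.3% were listed. Mir124-2hg, host of a precursor of the neuronal microRNA miR-124, had 180, 208, 183 and 177 reads in cKO, against 320, 316, 292 and 312 reads in WT. The groups were well apart, and it fell by 0.69 ± 0.08 log2 CPM (SE, limma adjusted p = 0.00102). The table also lists 3 microRNA genes of the Dlk1-Dio3 cluster, of which 2 passed limma (13.2% of all features tested did). Mir453 summed to 83 reads over the cKO libraries, against 42 over the WT libraries, and rose by 0.91 ± 0.23 (limma adjusted p = 0.0324). Mir1193, with 65 and 36 reads, rose by 0.76 ± 0.19 (0.033), and Mir494, with 24 and 8 reads, did not pass (1.08 ± 0.36, 0.104).

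None of a list of 21 host genes of small nucleolar RNAs was among the members. Host genes left out by name or annotated as another type were not counted, and genes outside the tables carry no values there. Of 44 lncRNAs named in neural development 4 were among the members, where 20.3% of all features tested were listed. These 4, Miat, Tunar, Meg3 and Pax6os1, were listed as higher. Pax6os1, antisense to the transcription factor gene Pax6, had 21, 16, 19 and 19 reads in cKO, against 7, 11, 10 and 11 reads in WT. Its groups did not overlap, and it rose by 0.86 ± 0.15 log2 CPM (SE, limma adjusted p = 0.00711).

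Where a lncRNA and its nearest protein-coding gene were both listed, most pairs had the same direction. Of 163 lncRNAs with a place in RefSeq's annotation, 78 (47.9%) had a nearest protein-coding gene that was itself listed. Of 4997 listed protein-coding genes so placed, 1558 (31.2%) had one. Of the 78 lncRNAs, 65 had the same direction as that gene and 13 the opposite (83.3% the same). Where the 2 genes overlap, 40 of 46 had the same direction (87.0%), within 10 kb 18 of 21 (85.7%) and farther away 7 of 11 (63.6%). Among the 1558 listed protein-coding genes with a listed nearest protein-coding gene, 1012 had the same direction as that gene (65.0%). The share was 67.3% where the genes overlap, 66.0% within 10 kb and 61.2% farther away. Protein-coding genes nearest to each other were counted from both sides, and some neighbours were shared between lncRNAs. The strand used in counting is not stated, so reads of an overlapping or antisense pair cannot be told apart. The difference between these shares was not tested.

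Arhgap33 had 1007, 940, 918 and 1035 reads in cKO, against 546, 589, 666 and 621 reads in WT, and rose by 0.72 ± 0.07 log2 CPM (SE, limma adjusted p = 0.000433), far less than its antisense neighbour. Abhd11 had 257, 224, 260 and 271 reads in cKO, against 217, 203, 210 and 176 reads in WT (0.36 ± 0.09, limma adjusted p = 0.0392). Pcsk2 had 901, 1062, 937 and 966 reads in cKO, against 1745, 1524, 1813 and 1795 reads in WT, and fell by 0.80 ± 0.06 (limma adjusted p = 8.74e-05). Pax6, a regulator of granule neuron development, rose by 0.45 ± 0.05 (limma adjusted p = 0.00104). Of 14 granule neuron markers, Pax6 among them, 3 were listed as higher and 5 as lower in cKO, with a median of -0.33. By limma 3 of them rose and 4 fell. Of all features tested 11% were listed as higher and 9.29% as lower.

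Fstl4, which overlaps Gm11186, rose by 0.43 ± 0.10, Tmem108, which overlaps 4932413F04Rik, fell by 1.04 ± 0.09, and Tmtc4, which overlaps Gm15735, fell by 0.37 ± 0.05. Pairs picked after their values were seen were Gm11695 with Slc16a5, a monocarboxylate transporter family gene, and AU022754 with Wnt7b, a Wnt ligand. Gm11695 had 17, 23, 16 and 7 reads in cKO, against 0, 1, 1 and 1 reads in WT, a ratio of 21.5 (95% interval 7.02 to 107, counting error alone). Slc16a5 had 190, 196, 203 and 212 reads in cKO, against 43, 13, 29 and 31 reads in WT, and rose by 2.84 ± 0.27 log2 CPM (SE, limma adjusted p = 0.000306). AU022754 summed to 112 reads over the cKO libraries, against 6 over the WT libraries, and rose by 3.17 ± 0.29, and Wnt7b rose by 0.98 ± 0.16. In the opposite direction, and also picked after their values were seen, Zfp335os rose by 0.65 while Zfp335 fell by 0.48.

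**Figure D3:**
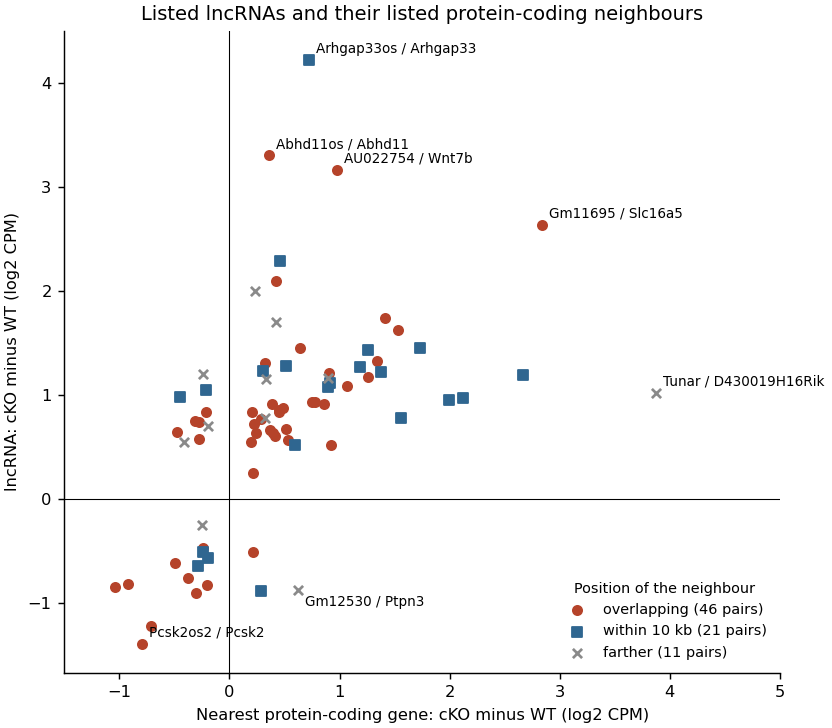
Each point is a listed lncRNA and its nearest protein-coding gene where both are listed, with the cKO minus WT difference (log2 CPM) of the protein-coding gene on the x axis and of the lncRNA on the y axis. Circles mark overlapping pairs (46), squares pairs within 10 kb (21) and crosses pairs farther apart (11). Points in the upper right and lower left corners, 65 of 78, have the same direction.

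Genes of proteins that work with lncRNAs moved in mixed directions. Of all features tested 20.3% were listed, 11% as higher and 9.29% as lower. By limma 2214 of the 5508 listed genes rose and 1365 fell. Of 12 genes of PRC2, the complex that writes H3K27me3 and binds many RNAs, 3 were listed as higher and 2 as lower, and 2 rose and 1 fell by limma. The accessory subunits Phf19 and Phf1 rose by 0.97 ± 0.11 and 0.69 ± 0.06 log2 CPM (SE), and Aebp2 fell by 0.30 ± 0.05. Of 15 NuRD genes 4 rose and 2, Chd4 and Cdk2ap1, fell by limma, with Chd5 and Chd3, the other ATPases of the complex, at 1.70 ± 0.10 and 0.79 ± 0.05. Of 17 genes of paraspeckle proteins 2 rose, Pspc1 by 0.42 ± 0.06 and Nudt21 by 0.46 ± 0.10, and 1, Sfswap, fell by 0.30 ± 0.08. Of 26 genes of nuclear RNA decay 2 fell, Dis3 by 0.30 ± 0.07 and Zcchc7 by 0.35 ± 0.08, and none was listed as higher. Of 13 genes of the Xist pathway 1, Spen, was listed as lower and did not pass limma (-0.21 ± 0.07, adjusted p = 0.117).

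After rotarod training fewer lncRNAs were listed, without a leading direction. The authors' deposited table lists 24 as higher and 29 as lower than at rest, where 2.06% and 1.31% of all features tested were so called (3.38% in either direction). Among all listed genes 555 were higher and 353 lower. The median difference of the 53 was -0.38 log2 CPM, against 0.30 over all listed genes. At least 2-fold, 6 were higher and 11 lower, against 0.416% and 0.175% of all features tested (0.591% in either direction). By limma 5 of the 53 rose and 8 fell. Among the 908 listed genes 113 rose and 54 fell, which is 0.42% and 0.201% of all features tested (0.621% in either direction). With each library centred on the median of the listed genes, 2 of the 53 rose and 12 fell. The groups did not overlap for 45 of the 53, as for 84.9% of all listed genes (51.1% above and 33.8% below).

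These calls by limma rest on all 8 libraries. Without rotarod libraries 3, 4, 7 and 8 in turn, 1, 0, 0 and 1 lncRNAs rose and 5, 2, 4 and 4 fell. Without rest libraries 1, 2, 5 and 6 in turn, 0, 2, 3 and 2 rose and 2, 2, 2 and 2 fell. At an unadjusted p under 0.05, 21 to 24 were higher and 27 to 29 lower in these fits. All 53 lie under that p in the fit of the 8 libraries, having been listed for low p-values, so these counts say little. The libraries are known by the number in their column name alone.

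Among members of at least median abundance, Gm17388 had 267, 274, 234 and 263 reads after rotarod, against 154, 152, 94 and 138 reads at rest. All trained libraries lay above all resting ones, and it rose by 0.83 ± 0.13 log2 CPM (SE, limma adjusted p = 0.0382). Gm10603 had 88, 74, 77 and 87 reads after rotarod, against 53, 34, 49 and 41 reads at rest, and rose by 0.74 ± 0.12 (limma adjusted p = 0.0392). Each of these calls was lost without any of 7 of the 8 libraries (adjusted p 0.0614 to 0.122 and 0.0552 to 0.127). D830044I16Rik, Gm17275, Gdap10 and Gm15564 stood at 0.82, 0.63, 0.59 and 0.72 and did not pass limma. The value of Gm15564 came from 619, 733, 1566 and 867 reads after rotarod, against 503, 389, 579 and 506 reads at rest, with library 7 far above the others.

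Of the 6 with the lowest fold change at that abundance, Gm11266 passed limma. It had 61, 54, 72 and 72 reads after rotarod, against 108, 90, 86 and 94 reads at rest, with no overlap (-0.67 ± 0.10, limma adjusted p = 0.0359), and its call was lost without any of 7 of the 8 libraries (0.0816 to 0.108). 2810402E24Rik, AI849053, 1500015A07Rik, Cep83os and C030014I23Rik stood between -0.75 and -0.51 and did not pass limma. Neat1 had 868, 796, 645 and 756 reads after rotarod, against 1210, 967, 905 and 943 reads at rest. Its groups did not overlap, and it fell by 0.52 ± 0.08 log2 CPM (SE, limma adjusted p = 0.0389), a call lost without any of the 8 libraries (0.079 to 0.13). Of the genes of paraspeckle proteins, Rbm3 rose by 0.74 ± 0.06 and Rbm14 by 0.60 ± 0.09 after rotarod, and of the Xist pathway Spen rose by 0.57 ± 0.09 and Ythdc1 by 0.37 ± 0.06. Exosc9 of the RNA decay list and the imprinted gene Ago2 were listed but did not pass limma, and no PRC2 or NuRD gene of the lists was listed. Markers of other cell types gave 5 listed of 71, 1 higher and 4 lower, at 169 to 201 summed CPM after rotarod, against 192 to 230 CPM at rest. Of all features tested 3.38% were listed in this comparison. The part of these markers in the differences was not tested.

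AI854517, named Mir9-3hg by RefSeq and holding a hairpin of miR-9, had 512, 462, 478 and 476 reads after rotarod, against 690, 581, 504 and 534 reads at rest. No trained library reached a resting one in log2 CPM, and it fell by 0.38 ± 0.06 (SE, limma adjusted p = 0.0458). That call was lost without any of the 8 libraries (0.079 to 0.163). Gm3764, which holds the Mir9-1 hairpin with the same mature miR-9 sequences and was picked after its values were seen, had 2607, 2054, 1863 and 2136 reads after rotarod, against 3362, 3049, 2020 and 2362 reads at rest. Its groups overlapped, and it did not pass limma (-0.43 ± 0.13, adjusted p = 0.356).

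**Figure D4:**
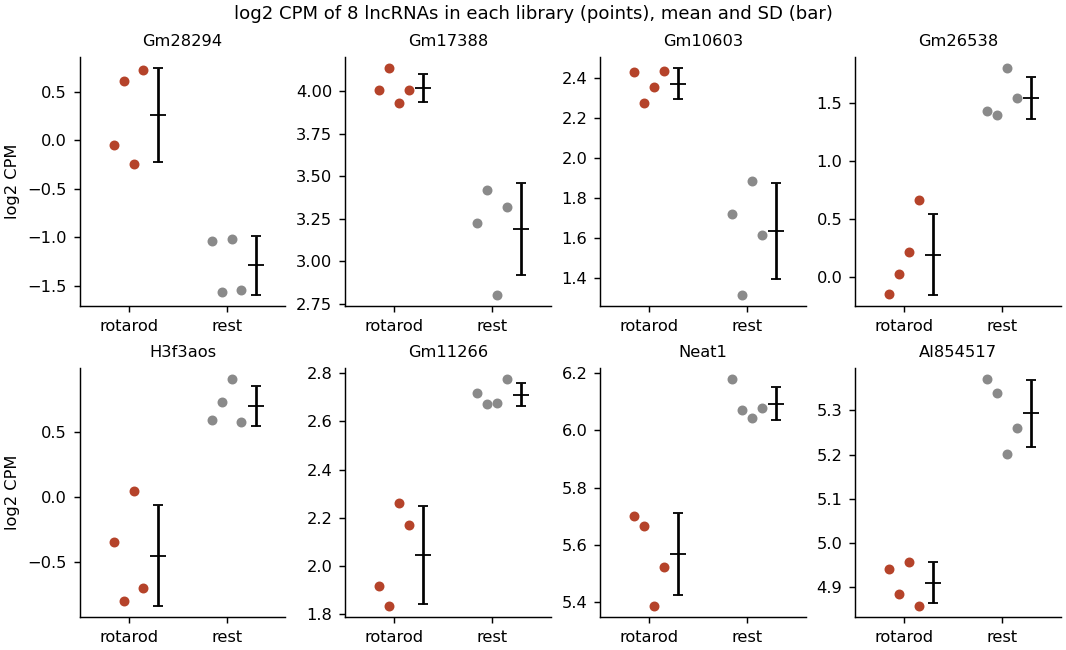
Points are the log2 CPM of 8 lncRNAs in each library, with 4 rotarod libraries left and 4 rest libraries right in each panel, and the bar is the mean with its SD. The axes differ between panels and do not start at 0. Gm28294, Gm17388 and Gm10603 are higher in every rotarod library, and Gm26538, H3f3aos, Gm11266, Neat1 and AI854517 are lower.

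The 17 lncRNAs in both tables took every combination of directions. There were 4 higher in cKO and after rotarod, 7 higher in cKO and lower after rotarod, 2 lower in cKO and higher after rotarod, and 4 lower in both. Over the 322 genes in both tables these counts were 75, 65, 132 and 50. The comparisons use separate libraries.

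Gm28294, an antisense gene, rose in both. It had 21, 21, 24 and 22 reads in cKO, against 14, 5, 12 and 7 reads in WT (1.17 ± 0.23, limma adjusted p = 0.0113), and 14, 22, 11 and 25 reads after rotarod, against 6, 3, 5 and 3 reads at rest (1.55 ± 0.25, 0.0389). H3f3aos, antisense to a gene of histone H3.3, fell in both. It had 3, 9, 6 and 8 reads in cKO, against 12, 13, 14 and 12 reads in WT (-0.83 ± 0.21, limma adjusted p = 0.0332), and 11, 7, 14 and 8 reads after rotarod, against 23, 22, 24 and 19 reads at rest (-1.15 ± 0.18, 0.0389). The cKO call of H3f3aos was lost without cKO library 3 or 4 or any WT library (adjusted p 0.0503 to 0.087). The rotarod call of H3f3aos was lost without any of 7 of the 8 libraries (0.0924 to 0.113), and that of Gm28294 without any of the 8 (0.0501 to 0.114).

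Gm11266 rose in cKO and fell after rotarod. In the deletion comparison it had 123, 141, 126 and 136 reads in cKO, against 66, 54, 72 and 65 reads in WT (1.05 ± 0.06, limma adjusted p = 2.75e-05). Mir124-2hg had 321, 296, 269 and 273 reads after rotarod, against 388, 402, 327 and 416 reads at rest, a difference of -0.53 ± 0.10 beside -0.69 in cKO, and did not pass limma in the training comparison (adjusted p = 0.069). Gm26538 had 13, 14, 16 and 24 reads after rotarod, against 43, 36, 46 and 39 reads at rest, and fell by 1.35 ± 0.17 (limma adjusted p = 0.0192), a call lost without any of 6 of the 8 libraries (0.0548 to 0.0698). In cKO it stood at 0.48 ± 0.13 (limma adjusted p = 0.0528, and 0.035 without cKO library 2).

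Others passed limma in the deletion comparison alone. 4930528D03Rik, 2310015A10Rik, A430106G13Rik and Gm15564 rose in cKO by 1.19, 0.65, 0.52 and 0.43, and stood after rotarod at -1.39, -0.36, 0.53 and 0.72. 4930528D03Rik had 3, 0, 0 and 0 reads after rotarod, against 6, 3, 6 and 3 reads at rest, a ratio of 0.152 (95% interval 0.0287 to 0.522), and passed limma without rotarod library 3 (adjusted p = 0.0253). D830044I16Rik and Kcnmb4os2 fell in cKO by 0.81 and 0.62, and stood after rotarod at 0.82 and -0.57. The call of Kcnmb4os2 was lost without cKO library 4 or WT library 1, 2 or 3 (adjusted p 0.054 to 0.0639). AI854517 and Neat1, which fell after rotarod, stood in cKO at 0.20 and -0.17. Gm29361, Gm12750, Gm26703 and Gm17275 did not pass limma in either comparison.

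**Figure D5:**
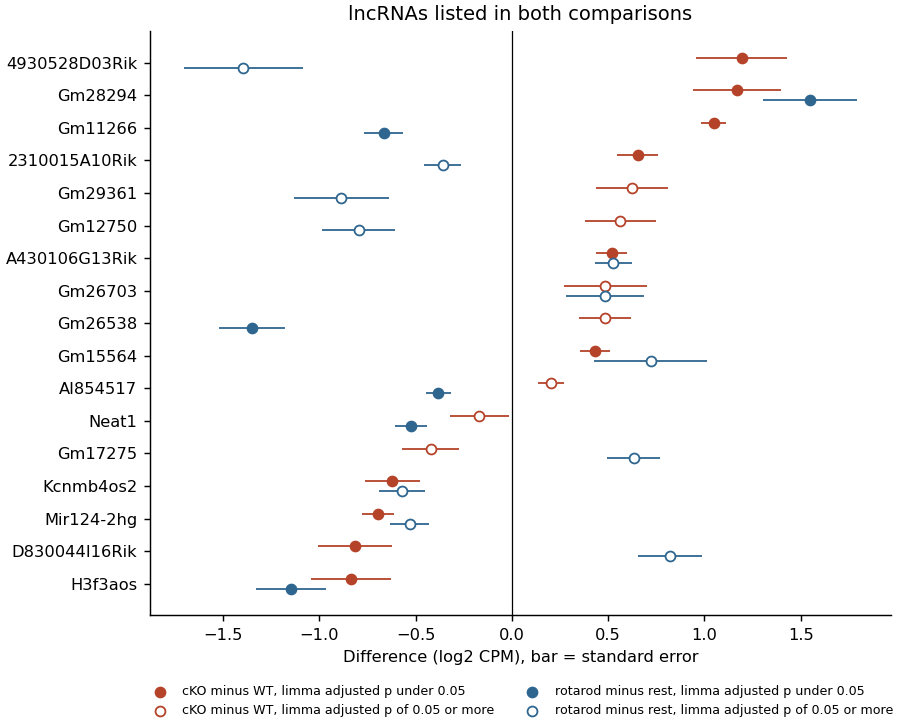
The cKO minus WT and rotarod minus rest differences (log2 CPM) are shown for the 17 lncRNAs in both tables, with bars of 1 standard error and filled points where limma's adjusted p is under 0.05. Gm28294 lies right of 0 in both, H3f3aos left of 0 in both, and Gm11266 right of 0 in cKO and left of 0 after rotarod.

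In ribosome-bound RNA purified by Sync-TRAP, a tagged-ribosome capture, from electroporated postnatal day 12 cerebella (3 cKO and 3 WT precipitates), 1 of the 38 genes of the authors' deposited table was a lncRNA of the types examined. Kank4os, antisense to Kank4, stood there at 3.57, -1.80 and 3.02 log2 CPM in cKO, against -3.71, -3.71 and -3.14 log2 CPM in WT, where -3.71 is the value of 0 reads. The authors' deposited table gives an adjusted p of 0.0312, and cKO library 2 was far below the other two. At postnatal days 27 to 28 Kank4os had 21, 6, 15 and 17 reads in cKO, against 1, 5, 0 and 1 reads in WT, and rose by 2.23 ± 0.45 log2 CPM (SE, limma adjusted p = 0.014).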

How the data were processed

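The authors deposited tables of log2 CPM per library, made with a prior count, together with their log2 fold change, p-value and adjusted p-value, and a likelihood ratio score that was not used here, per the file headers. The submitters' processing notes name Bowtie, edgeR and build mm9, with no versions, and the strand used in counting is not stated. The tables hold called genes alone (adjusted p under 0.05). Repeated lines, 49 and 5, were removed. Whole reads were recovered from the log2 CPM, and 100% of low values lay within 0.1 read. Log2 CPM of all listed genes were fitted with limma 3.58.1 (R 4.3.3), with Benjamini-Hochberg adjustment over about 27100 (cKO) or 26900 (rotarod) features tested, estimated from the deposited p-values. The prior count makes fitted differences of genes with few reads smaller than the authors' fold changes. Count models were not fitted, since the tables lack uncalled genes. In simulated data with 200 changed genes, 69.0% and 99.0% (cKO, 5508 genes) and 83.0% and 100% (rotarod, 908 genes) of changes of 0.5 and 1 log2 were recovered. The simulated fits were adjusted over those genes alone, with changes set only in genes above 0 log2 CPM. Recovery in the reported fits, adjusted over more features, and in genes of few reads may be lower.

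Members and lists were chosen with earlier results of these data known. Named genes were the 12 highest and 12 lowest fold changes in cKO, and the 6 of each after rotarod, among members of at least median abundance, the 6 highest with under 4 WT reads in all, the 5 members closest to Miat, listed members of the lists, and genes in both tables. Members outside this rule that are described with their values were picked after those were seen. Tables were read with Python 3.11.15, pandas 2.3.3 and scipy 1.17.1, and plotted with matplotlib 3.10.9. Sequences and neighbours come from RefSeq (GRCm38.p6), where 174 of 272 cKO and 29 of 53 rotarod members matched.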

Additional observations from a re-analysis of the deposited data

Results flagged for a closer look

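In 10 of 146 groups of 4 libraries 1 library stood apart from the other 3 by the criterion of Dixon, which chance alone meets in about 1 in 20 groups. Values are log2 CPM. Miat had 6.73 in cKO library 2, below 7.08 to 7.12 in the others, and still far above WT. Gm29431 was at -2.87 (0 reads) and Gm29398 at -1.30 (4 reads, the highest) in the same library. Gm26614 was lowest in cKO library 4 at 0.057. In WT libraries, 2310015A10Rik was lowest at 3.67 (WT 4), Gm26944 lowest at 1.34 (WT 1) and Gm16702 highest at 0.34 (WT 1). 4930528D03Rik was highest in rotarod library 3 at -1.69 (3 reads), with the other trained libraries at 0 reads. Among rest libraries, Cep83os was lowest at 4.28 (library 5) and Gdap10 lowest at 2.40 (library 2).

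Kank4os was the single lncRNA of the types examined among the 38 genes that the authors list for the Sync-TRAP precipitates, outside the comparisons above. Its log2 fold change in their deposited table was 8.63 (cKO over WT). Other lncRNAs of the precipitates carry no values there.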

How the results depend on the processing

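No direction of a named gene or median reversed under any alternative run. Of the authors' 196 higher and 76 lower cKO calls, an adjusted p under 0.01 kept 44 of the lower, one under 0.001 kept 82 and 25, at least 2-fold 124 and 21, at least the median abundance 13 and 8, lincRNAs 118 and 31, antisense genes 78 and 45, and a mean of 10 reads 123 of the higher. After rotarod (24 and 29) these were 11 and 19 (under 0.01), 8 and 9 (under 0.001), 6 and 11 (2-fold), 1 and 4 (abundance), 12 and 18 (lincRNA) and 12 and 11 (antisense). By limma, cKO libraries 1 and 2 with WT 1 and 2 gave 35 higher and 1 lower, and libraries 3 and 4 gave 59 and 15. Adjusting over listed genes gave 70 lower in cKO, and 24 and 29 after rotarod. Leaving out a library gave 109 to 124 higher and 29 to 44 lower in cKO, and 0 to 3 and 2 to 5 after rotarod. Centred libraries gave 2 higher after rotarod and log2(CPM + 1) gave 10 and 13. The median in cKO was 0.37 with log2(CPM + 1), 0.12 with log2(CPM + 5), 0.56 at 10 or more reads, 0.63 centred and 0.67 to 0.77 without a library. After rotarod it was -0.072 with log2(CPM + 5), -0.47 centred and -0.41 to -0.37 without a library. Of 41 named cKO genes past limma 12 passed under every alternative, and of 8 after rotarod 0 did; the cause was not tested. Deviations of cKO and WT libraries from their group means correlated at 0.0846 to 0.160 for the same number. For different numbers they ranged from -0.163 to 0.184, so pairing by number is not settled. Within libraries 1 and 2, or within 3 and 4, correlations were 0.0305 to 0.184, and between these sets -0.163 to 0.0312. The cause of this grouping was not tested. With the replicate number as a block 130 rose and 42 fell; 4930528D03Rik (0.0550), 5430400D12Rik (0.0575) and Gm26944 (0.0546) lost their calls and Gm15735 (0.0466) gained one. Genes of few reads are limited by depth, and the tables give no values for uncalled genes.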
